A study of Mus musculus with 12 samples.

Results

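The CD200 receptor genes Cd200r1, Cd200r2, Cd200r3 and Cd200r4 and the gene of their ligand, Cd200, were followed across 4 groups of granulocyte-monocyte progenitors (GMP) of the mouse, the precursors of neutrophils and monocytes in bone marrow. The members are the 5 probes, of 39429 on the array, that the scanner files name for 1 of these genes, and each gene had 1 probe. All 5 passed the filter on dim probes and were among the 17905 genes tested, which needs a signal well above background on all arrays of 1 group or more. Cd200r1, Cd200r3 and Cd200r4 were well above background on all 12 arrays, Cd200r2 passed through the ko arrays only, and Cd200 passed through the ko and the wt arrays. The family was chosen by its measured differences between Runx1-deleted and wild-type cells, so its values in that comparison are a description and are given without a test.

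RNA was measured on 12 one-colour Cy3 arrays in a study of the genes that RUNX1, a transcription factor needed to form blood cells, controls in GMP. RUNX1-ERt2 GMP (2 arrays) and ERt2 GMP (2 arrays) came from transplanted marrow: Runx1fl/fl-Tg(vav-Cre) donors received 150 mg/kg of the cytostatic drug 5-fluorouracil, and their marrow was taken after 3 days and infected with a retrovirus (MIG) carrying GFP together with either RUNX1 fused to ERt2, a hormone-binding domain that tamoxifen activates, or ERt2 alone. The cells were given to lethally irradiated mice, tamoxifen (49.5 µg/g) followed on 3 days after 6 weeks, and viable GFP-positive GMP were sorted 24 h later. The protocol mentions tamoxifen for only some of the recipients; since every transplanted sample is labelled with it, all 4 are taken as treated. Runx1-deleted GMP (ko, 4 arrays) came from Runx1fl/fl-Tg(vav-Cre) mice and wild-type GMP (wt, 4 arrays) from Runx1+/+-Tg(vav-Cre) mice. All groups thus carry vav-Cre, in which a promoter active throughout blood cells drives the Cre recombinase, and all but wt carry the floxed Runx1 alleles. The sources used here state neither ages nor whether each array stands for its own animal, so the p-values cover only the spread between samples, part of which may be technical.

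CD200 is a membrane glycoprotein of the immunoglobulin superfamily, carried by lymphocytes, neurons, endothelium and other cells. It binds the CD200 receptor CD200R1 on myeloid cells, whose phosphorylated cytoplasmic tail recruits the adaptors DOK2 and DOK1 and then the Ras GTPase-activating protein RASA1, and so dampens myeloid activation. In the mouse, Cd200r2, Cd200r3 and Cd200r4 encode related receptors with short tails that pair with the adaptor DAP12 (the product of Tyrobp), which signals through the kinase SYK; CD200R3 is known from mouse basophils and mast cells.

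An array had 53.5% to 63.2% of its probes well above background, with no spot saturated. The transplanted arrays were dimmer, with a median processed signal of 40.2 to 54.4, against 61.4 to 92.5 for ko and wt. RUNX1-ERt2 arrays lay on slide 4 and ERt2 arrays on slide 3, so that slide and group cannot be told apart between them, while slide 1 held replicates 1 and 2 and slide 2 replicates 3 and 4 of both ko and wt. All 16 listed GMP genes, among them myeloperoxidase (Mpo), were well above background on all 12 arrays. The same held for the 9 monocyte and macrophage, 9 dendritic cell and 10 erythroid genes tested. Detection of these genes therefore does not establish progenitor identity, which rests on the sorting. The Runx1 probe averaged 2.13 ± 0.29 in RUNX1-ERt2, 3.22 ± 0.11 in ERt2, 3.40 ± 0.58 in ko and 1.71 ± 0.54 in wt (SD). It was thus lower with RUNX1-ERt2 than with ERt2 (−1.09 ± 0.24, limma adjusted p = 0.012, a call that ended in 4 alternatives) and higher in ko than in wt (1.69 ± 0.17, adjusted p = 0.00025), so that it shows neither the added RUNX1 nor the deletion. The sources used here do not place the probe relative to the floxed part, and the identity of the groups rests on their labels. Levels are log2 signals minus the 75th percentile of the array, and differences are on the same log2 scale with their SE from 1 limma fit over all arrays. In sorted but bulk samples, fewer cells that express a gene and less RNA per cell cannot be told apart.

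All members lie on chromosome 16. By the files' mm9 coordinates the Cd200r1 probe is at 44794670 to 44794729, the Cd200r4 probe at 44838106 to 44838165, the Cd200r2 probe at 44915823 to 44915882 and the Cd200r3 probe at 44957886 to 44957945, so that the receptor probes span 163.2 kb. The Cd200 probe, at 45382387 to 45382446 and on the other strand, is a further 424.5 kb away. The probes of Cd200r3 and Cd200r4 are shown because they share sequence and because these genes had the closest profiles of the family. Their 60 bases share 30 of 31 bases over 1 stretch, in capitals where at least 10 bases in a row are the same.
Cd200r3: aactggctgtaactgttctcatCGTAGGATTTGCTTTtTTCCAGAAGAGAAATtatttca
Cd200r4: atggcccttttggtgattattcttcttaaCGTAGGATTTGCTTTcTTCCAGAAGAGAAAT

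The best ungapped match of these probes had 41 identical bases of 53, whereas no other pair of member probes shared a run longer than 7 bases. Signals of Cd200r3 and Cd200r4 may therefore not be fully separate, and this was not tested. A probe with no gene name in the files (at 44914728 to 44914787, 1.1 kb from the Cd200r2 probe) was the single other probe on the array that shared at least 20 bases in a row with the Cd200r4 probe. It matched that probe at 45 of 48 bases and the Cd200r3 probe at 40 of 55, and is shown with capitals for runs of at least 10 bases shared with Cd200r4.
Unnamed probe: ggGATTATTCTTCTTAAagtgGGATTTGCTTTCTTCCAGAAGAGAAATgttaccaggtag

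RefSeq promoters (GRCm38.p6, 250 bases before to 50 after the start) were at hand for 4 of the members, Cd200r1 being the one without an entry. The promoters of Cd200r3 (chromosome 16, 44943428 to 44943727, plus strand) and Cd200r4 (44820478 to 44820777, plus strand) resemble each other, with 155 identical bases of 226 in the best ungapped match (68.6%) and a longest shared run of 32 bases. The other pairs of members shared at most 9 bases in a row. Both are shown with capitals for the 77 bases in shared runs of at least 12.
Cd200r3 promoter: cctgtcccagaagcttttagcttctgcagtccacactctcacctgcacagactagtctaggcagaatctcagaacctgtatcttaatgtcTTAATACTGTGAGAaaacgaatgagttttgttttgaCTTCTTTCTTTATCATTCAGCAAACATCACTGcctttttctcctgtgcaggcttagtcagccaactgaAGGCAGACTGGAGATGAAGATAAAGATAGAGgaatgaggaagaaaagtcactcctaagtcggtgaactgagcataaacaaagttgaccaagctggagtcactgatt
Cd200r4 promoter: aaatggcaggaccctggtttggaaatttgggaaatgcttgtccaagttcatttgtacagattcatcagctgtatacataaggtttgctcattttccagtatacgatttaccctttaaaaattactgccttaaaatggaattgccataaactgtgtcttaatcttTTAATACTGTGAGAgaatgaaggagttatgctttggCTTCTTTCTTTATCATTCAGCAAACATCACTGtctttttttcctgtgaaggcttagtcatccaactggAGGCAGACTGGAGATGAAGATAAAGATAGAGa

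The hexamers TGTGGT and TGCGGT, the core that RUNX proteins recognise, were searched on both strands. They were in 22.4% of 32851 promoters of this length (TGTGGT in 16.8% and TGCGGT in 6.45%) and in 1 of the 4 members' promoters, that of Cd200r2 (44866847 to 44867146, plus strand), which is shown for that match. TGTGGT lies there on the minus strand, 75 bases before the start, read as the capitals on the printed strand; it is a match of letters in this window and not evidence of binding.
Cd200r2 promoter: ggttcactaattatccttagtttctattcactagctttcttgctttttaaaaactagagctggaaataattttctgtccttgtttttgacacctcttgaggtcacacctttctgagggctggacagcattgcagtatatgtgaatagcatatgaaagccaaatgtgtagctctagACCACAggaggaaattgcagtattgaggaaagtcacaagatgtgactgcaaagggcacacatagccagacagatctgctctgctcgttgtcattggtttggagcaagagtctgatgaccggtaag

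Cd200r1 encodes the inhibitory receptor for CD200. It measured −2.42 and −2.20 with RUNX1-ERt2, −1.82 and −2.21 with ERt2, −0.35, −0.49, −1.53 and −1.32 in ko, and −2.54, −2.58, −2.70 and −2.71 in wt. The ko arrays were the highest and the wt arrays the lowest, with the transplanted arrays between them and no overlap with either, and RUNX1-ERt2 and ERt2 overlapped. The group means were −2.31 ± 0.16 with RUNX1-ERt2, −2.02 ± 0.28 with ERt2, −0.92 ± 0.59 in ko and −2.63 ± 0.09 in wt (SD, n = 2, 2, 4 and 4). The difference ko minus wt was 1.71 ± 0.18 (3.27-fold higher), with 2.14 on slide 1 and 1.28 on slide 2.

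Cd200r4, a receptor of the DAP12-pairing kind, had the largest ko minus wt difference of the family. It measured −1.28 and −0.89 with RUNX1-ERt2, 0.61 and −0.18 with ERt2, 0.86, 0.86, −0.60 and −0.27 in ko, and −4.44, −4.91, −4.69 and −4.56 in wt. All arrays of the other groups lay far above wt, ERt2 lay within the range of ko, and both RUNX1-ERt2 arrays lay below every ERt2 and ko array. Its means were −1.08 ± 0.28 with RUNX1-ERt2, 0.22 ± 0.56 with ERt2, 0.21 ± 0.76 in ko and −4.65 ± 0.20 in wt. The ko minus wt difference of 4.86 ± 0.29 (29.1-fold; 5.54 on slide 1 and 4.19 on slide 2) was the 10th highest of the 17905 genes, and it was 3.36 with normexp background correction.

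Cd200r3, which is known from basophils and mast cells, was likewise lowest in wt. It measured −1.30 and −1.19 with RUNX1-ERt2, −0.40 and −0.79 with ERt2, 0.17, 0.19, −1.08 and −0.91 in ko, and −4.14, −4.47, −4.80 and −4.85 in wt. As for Cd200r4, the wt arrays stood apart from all others, ERt2 lay within the range of ko and both RUNX1-ERt2 arrays were below all ERt2 and ko arrays. The means were −1.25 ± 0.08 with RUNX1-ERt2, −0.60 ± 0.28 with ERt2, −0.41 ± 0.68 in ko and −4.57 ± 0.33 in wt, and the ko minus wt difference was 4.16 ± 0.15 (17.8-fold; 4.49 and 3.83 on the slides), the 23rd highest of all genes. With normexp background correction it was 2.59.

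Cd200r2, another short-tailed receptor of the mouse, was well above background only in ko, at −4.87, −4.62, −4.75 and −5.43. On the remaining arrays it was not well above background, with signals of −6.30 and −6.12 with RUNX1-ERt2, −5.28 and −7.00 with ERt2, and −7.96, −7.63, −8.18 and −7.69 in wt. Measured means were −6.21 ± 0.13 with RUNX1-ERt2, −6.14 ± 1.22 with ERt2, −4.92 ± 0.36 in ko and −7.86 ± 0.26 in wt. Against the lowest level at which the wt arrays measured a probe, ko was at least 1.84-fold higher, and the fitted difference of 2.95 ± 0.33 (3.05 and 2.85 on the slides) rests on wt signals below background. With normexp background correction it was 0.016.

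Cd200, the ligand gene, had a pattern of its own. It was not well above background with RUNX1-ERt2 (−7.51 and −6.94) or ERt2 (−6.45 and −7.18), and measured −4.18, −4.11, −5.65 and −4.81 in ko and −3.81, −3.81, −4.37 and −4.44 in wt. The ko and wt arrays overlapped, and every transplanted array was below every ko and wt array. The means were −7.23 ± 0.41 with RUNX1-ERt2, −6.82 ± 0.52 with ERt2, −4.69 ± 0.72 in ko and −4.11 ± 0.34 in wt. The ko minus wt difference was −0.58 ± 0.23 (−0.33 on slide 1 and −0.83 on slide 2). The lowest level at which any probe was well above background ranged from −5.49 to −5.08 on the transplanted arrays. A probe above that level could still fall short, as Phldb2 did at −5.13 on RUNX1-ERt2 replicate 2, where the lowest level was −5.38. Whether the dimmer transplanted arrays account for the missing Cd200 signal was not tested.

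**Figure D1:**
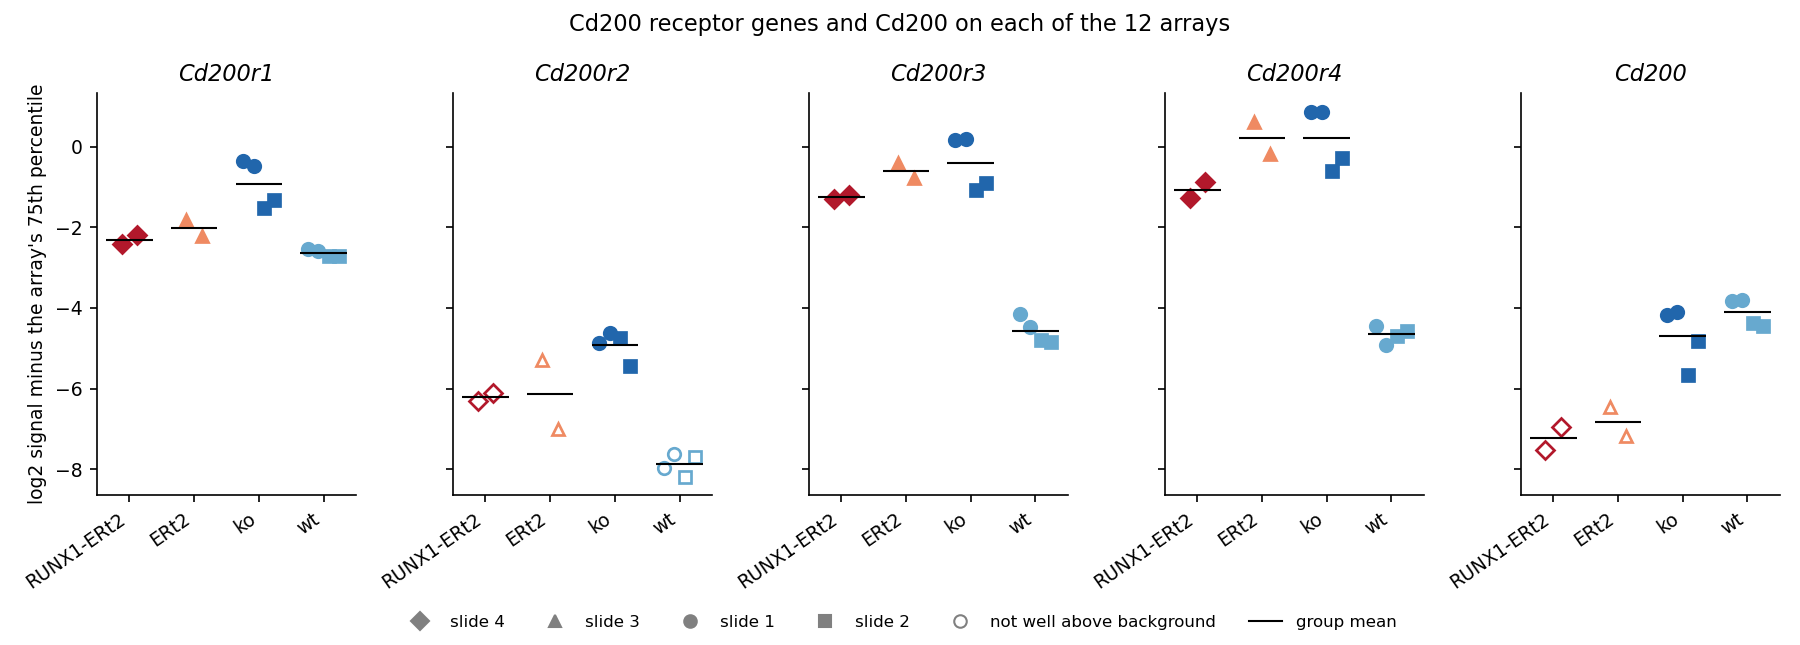
Log2 signal minus the 75th percentile of the array for each member on the 12 arrays, by group. Symbols give the slide, open symbols stand for arrays on which the probe was not well above background, and bars are group means. Cd200r1, Cd200r3 and Cd200r4 are lowest in wt, Cd200r2 is well above background in ko only, and Cd200 is well above background in ko and wt only.

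In ko against wt, the comparison on which the members were chosen, all 4 receptors had every ko array above every wt array and Cd200 did not separate the groups. Of all genes, 10.1% had every ko array above every wt array, and 25.3% passed an adjusted p of 0.05 in either direction, 11.5% higher and 13.8% lower in ko. Cd200r1 had the 270th highest difference of all genes, and no rank is given for Cd200r2, which was not well above background in wt. Cd200r1, Cd200r3 and Cd200r4 were each higher on the ko arrays of slide 1 than on those of slide 2.

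**Figure D2:**
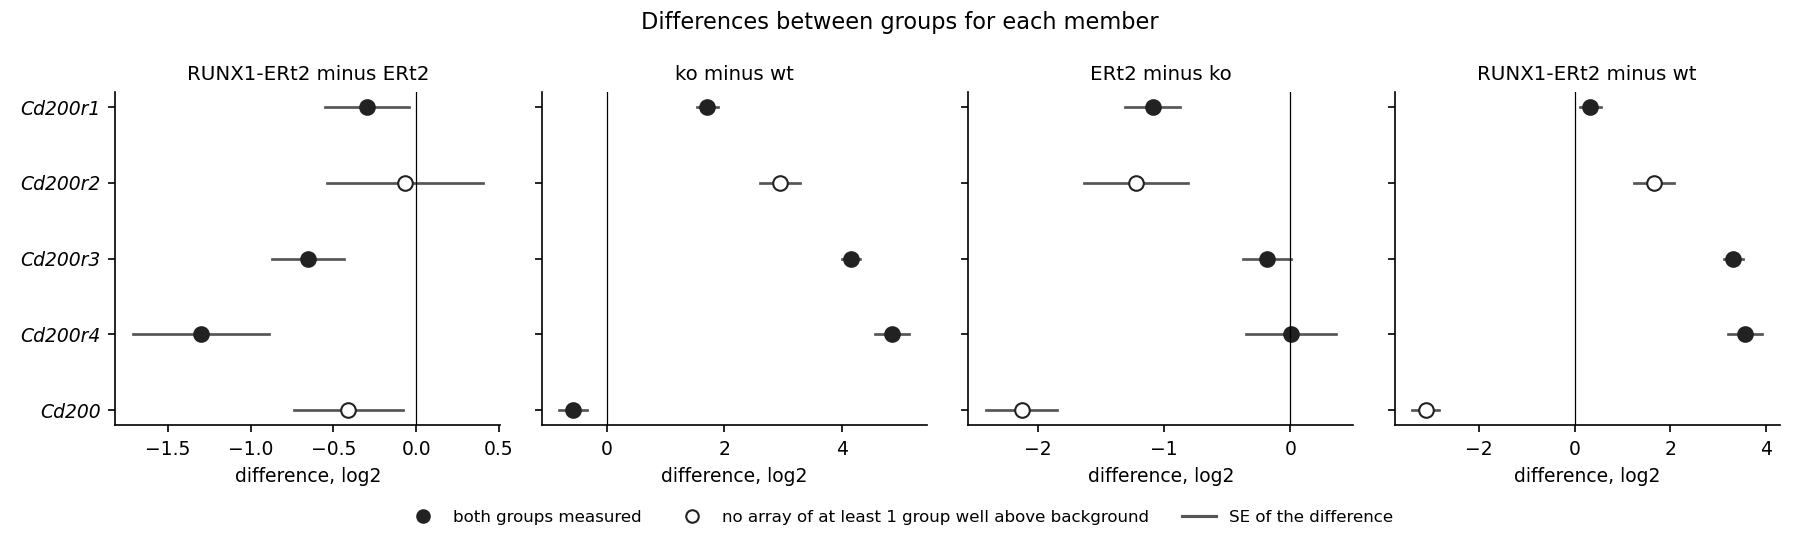
Difference between groups on the log2 scale for each member in 4 comparisons, with its SE. Open symbols mark members for which no array of at least 1 group was well above background. RUNX1-ERt2 minus ERt2 is the tested comparison.

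By its labels, RUNX1-ERt2 against ERt2 asks what activated RUNX1 does in cells that lack Runx1, and its arrays were not used to choose the members. Cd200r1, Cd200r3 and Cd200r4 had the lower mean with RUNX1-ERt2, where the median difference of all genes was 0.00. Cd200r2 and Cd200 passed the filter through native arrays only and were not well above background in either group, so their direction is not read. None of the 5 members passed the threshold by limma's test with Benjamini-Hochberg adjustment, against 19.1% of all genes (10.2% higher and 8.87% lower). At an unadjusted p under 0.05 there were 2, Cd200r3 and Cd200r4, against 31.6% of all genes, so that 2 of 5 members is near the background. Cd200r4 averaged −1.08 with RUNX1-ERt2 and 0.22 with ERt2, a difference of −1.30 ± 0.41 (limma unadjusted p = 0.011, adjusted p = 0.0556) with a 95% interval from −2.23 to −0.38. That is 2.46-fold lower with RUNX1-ERt2, with an interval of 1.3-fold to 4.68-fold, and it was the 733rd lowest of the 17905 differences. The call lies at the threshold: 6 of 22 alternatives brought it past 0.05, and without ERt2 replicate 1 the adjusted p was 0.277.

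Cd200r3 differed by −0.65 ± 0.22 (limma unadjusted p = 0.015, adjusted p = 0.0693, interval −1.15 to −0.16), which is 1.57-fold lower with RUNX1-ERt2. Without the slide term its SE was 0.43 and its limma adjusted p 0.399. The arrays of the 2 groups did not overlap for Cd200r3 or for Cd200r4, as for 58.9% of all genes (29.8% lower with RUNX1-ERt2), so that nothing is read from it. Cd200r1 differed by −0.30 ± 0.25 (adjusted p = 0.475), and its interval of −0.86 to 0.27 leaves room for a fall to 1.82-fold lower and for a small rise. Cd200r2 (−0.07 ± 0.47, adjusted p = 0.945) and Cd200 (−0.41 ± 0.33, adjusted p = 0.448) were not well above background in either group, and no fold is given for them.

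The transplanted groups set beside the native ones show how far each receptor lay from wt, as values without a test because the ko and wt arrays chose the members and because slide and group cannot be told apart. With RUNX1-ERt2, Cd200r4 was 3.57 ± 0.36 above wt (11.8-fold) and Cd200r3 was 3.32 ± 0.19 above wt (9.98-fold), while Cd200r1 was 0.32 ± 0.22 above wt. ERt2 differed from ko by 0.00 ± 0.36 for Cd200r4, by −0.19 ± 0.19 for Cd200r3 and by −1.09 ± 0.22 for Cd200r1. On average, Cd200r2 was at least 1.2-fold higher in ko than the lowest measurable level of the ERt2 arrays. Its groups overlapped, with ERt2 replicate 1 at −5.28, not well above background, and ko replicate 4 at −5.43. For Cd200, ko was at least 1.41-fold higher than ERt2, and wt at least 2.51-fold higher than RUNX1-ERt2.

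Cd200r3 and Cd200r4 varied together, with a Pearson correlation of 0.99 over the 12 arrays. This is a description over arrays of 4 groups and of probes that share sequence. The gap Cd200r4 minus Cd200r3 was nonetheless not the same in every group. It averaged 0.16 with RUNX1-ERt2 (0.02 and 0.30), 0.81 with ERt2 (0.61 and 1.01), 0.62 in ko (0.48 to 0.69) and −0.08 in wt (−0.44 to 0.28). Every ERt2 and ko array thus had a larger gap than every RUNX1-ERt2 and wt array. This was not tested and has no share over all genes beside it, and the wt means of both probes were low (−4.57 for Cd200r3 and −4.65 for Cd200r4). Cd200r1 correlated less closely with Cd200r3 (0.79) and Cd200r4 (0.79), and Cd200 correlated negatively with both (−0.45 and −0.44). The Cd200 values of the transplanted arrays, which enter these correlations, were not well above background.

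The unnamed probe next to Cd200r2, singled out after its values were seen, showed yet another pattern. It measured −1.04, −0.996, −2.41 and −2.14 in ko. It was not well above background elsewhere, at −7.76 and −7.62 with RUNX1-ERt2, −7.04 and −7.34 with ERt2, and −6.35, −6.77, −6.56 and −7.12 in wt. Its signal in ko was at least 17.7-fold higher than in wt and at least 11.6-fold higher than in ERt2, the group in which Cd200r4, whose probe it matches most closely, was as high as in ko.

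**Figure D3:**
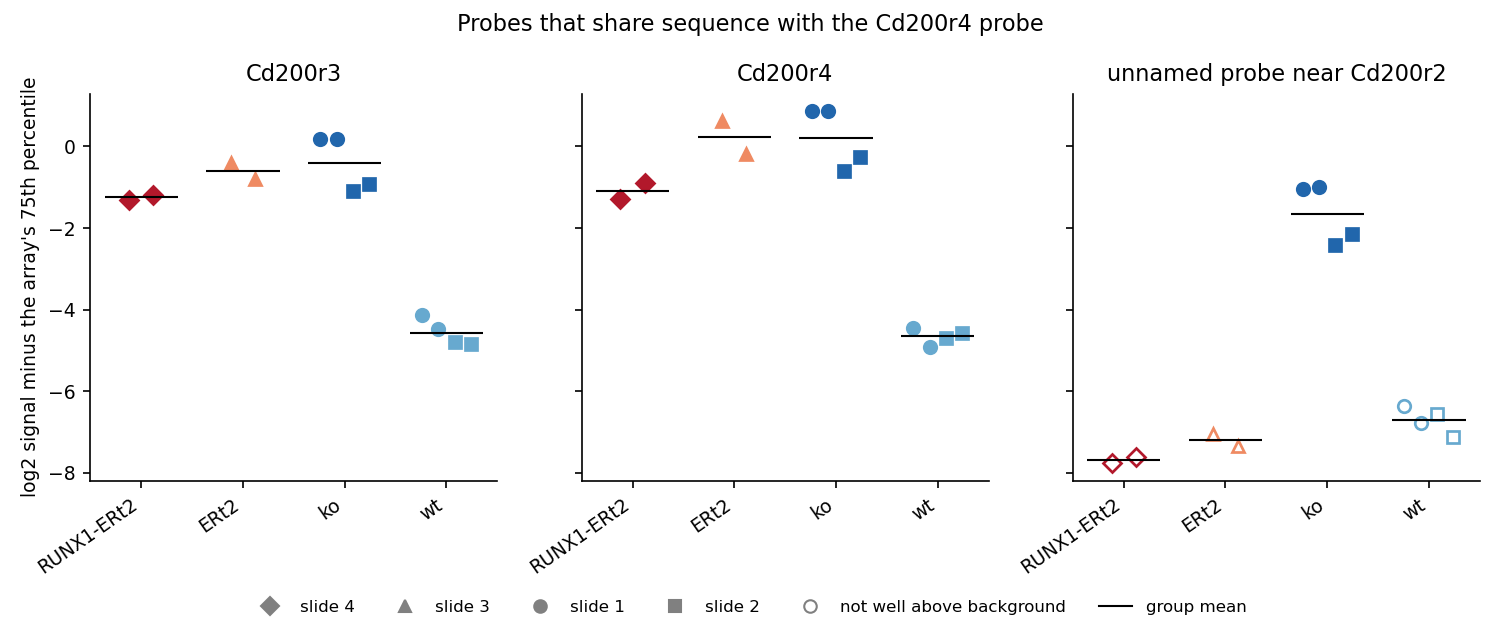
Log2 signal minus the 75th percentile of the array for Cd200r3, Cd200r4 and the unnamed probe near Cd200r2, by group and array, with group means as bars. The unnamed probe is well above background in ko only, whereas Cd200r3 and Cd200r4 are high in every group other than wt.

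Genes around the cluster were set beside it. Within 500 kb of the outermost member probes lay 18 named genes, of which 12 were tested. None of them passed as higher in ko than in wt and 2 were lower, against 11.5% and 13.8% of all genes, so that the 2 of 12 is near the background. The same 2 genes were lower with RUNX1-ERt2 than with ERt2, where 8.87% of all genes were, and no named gene was higher. A probe with no gene name, 574.3 kb from the Cd200r4 probe, was higher with RUNX1-ERt2 (2.61 ± 0.17, limma adjusted p = 1.5e-05). It averaged −0.04 with RUNX1-ERt2, −2.65 with ERt2, 2.03 in ko and 2.37 in wt, and did not pass between ko and wt (adjusted p = 0.066). Btla, an inhibitory receptor of lymphocytes that lies between Cd200r3 and Cd200, averaged −4.31 with RUNX1-ERt2, −1.65 with ERt2, −3.38 in ko and −1.85 in wt. Its difference was −2.66 ± 0.36 for RUNX1-ERt2 minus ERt2 (limma adjusted p = 0.00098) and −1.53 ± 0.25 for ko minus wt (adjusted p = 0.0031; −1.20 and −1.86 on the slides).

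Phldb2, which encodes a membrane-associated protein of cell adhesion sites, averaged −4.64 with RUNX1-ERt2, −2.26 with ERt2, −4.09 in ko and −2.43 in wt. It differed by −2.38 ± 0.47 for RUNX1-ERt2 minus ERt2 (limma adjusted p = 0.0080) and by −1.66 ± 0.34 for ko minus wt (adjusted p = 0.0079). The first of these calls ended without RUNX1-ERt2 replicate 2 (0.059) and without ERt2 replicate 2 (0.055). The nearest tested genes, Gtpbp8 and Nepro, 98.7 kb and 101.5 kb from the Cd200r4 probe, differed by −0.22 ± 0.08 (adjusted p = 0.086) and −0.07 ± 0.15 (adjusted p = 0.76) between ko and wt. The other tested neighbours, none of which passed in either comparison, were Spice1, Boc, Ccdc80, Slc35a5, Atg3, Gcsam, BC016579 and Abhd10.

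**Figure D4:**
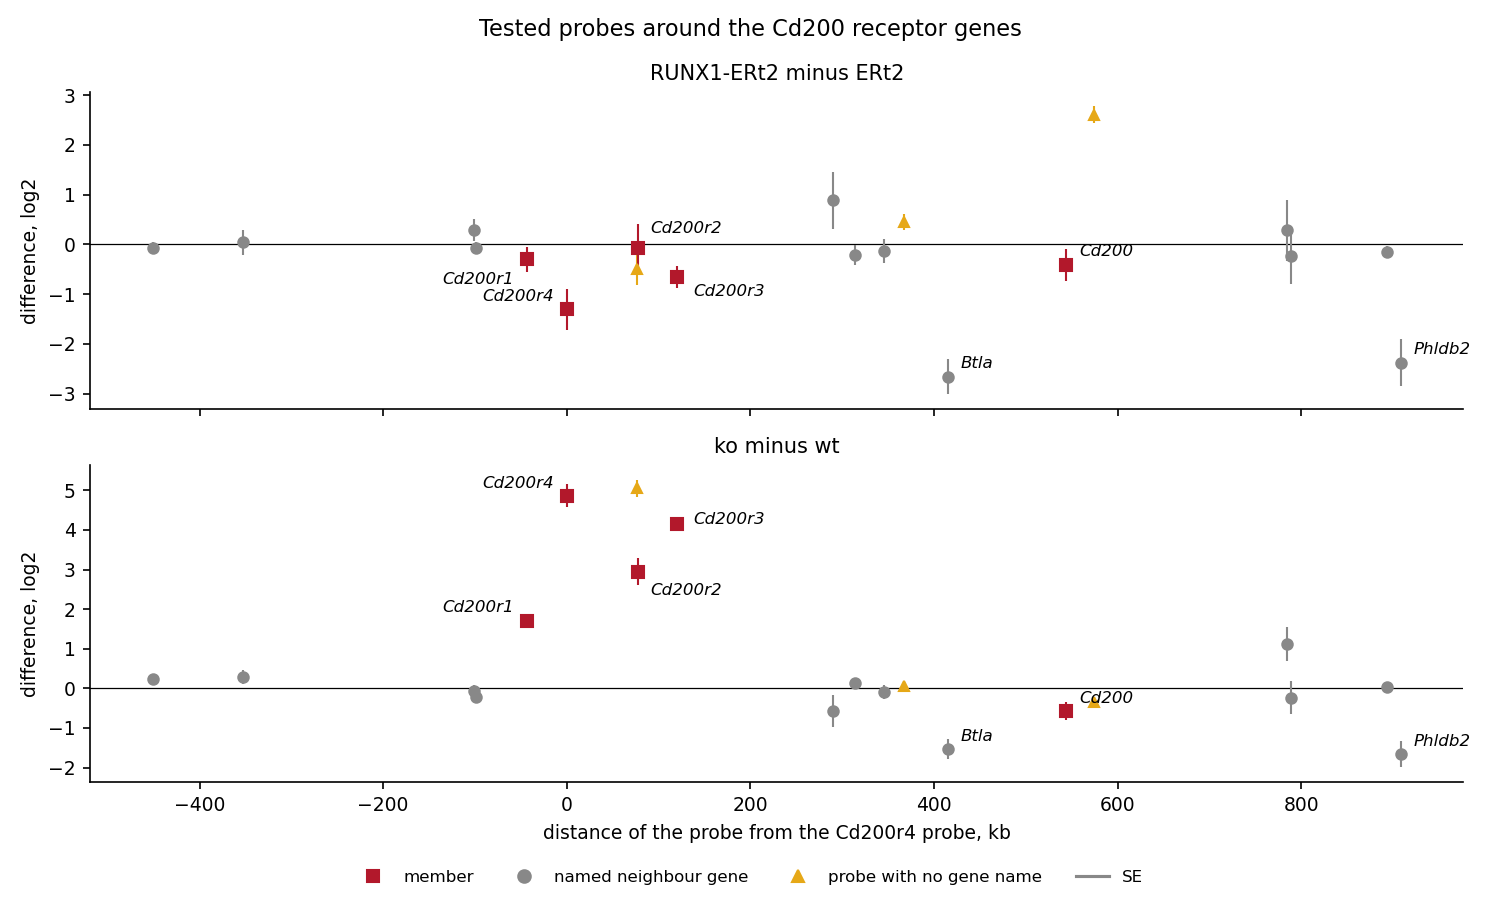
Difference on the log2 scale with its SE for every tested probe around the cluster, against its distance in kb from the Cd200r4 probe, for RUNX1-ERt2 minus ERt2 and for ko minus wt. In ko minus wt the receptors and the unnamed probe near Cd200r2 stand above all named neighbours, and Btla and Phldb2 lie below 0 in both comparisons. The unnamed probe 574.3 kb away is the highest in RUNX1-ERt2 minus ERt2.

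The counts of the 5 pathway lists stand beside 10.2% of all genes higher and 8.87% lower with RUNX1-ERt2, and 11.5% higher and 13.8% lower in ko. In ko the counts of all but the last of these lists are near those shares. The partners through which CD200R1 inhibits were tested as a list of 11 genes. With RUNX1-ERt2 against ERt2, 1 was higher and 3 were lower, with a median of 0.01 against 0.00 over all genes. Dok2, the main adaptor of CD200R1, averaged 0.99 with RUNX1-ERt2 and 2.82 with ERt2 (−1.83 ± 0.34, limma adjusted p = 0.0056), and the related adaptor Dok3 averaged 1.93 and 3.45 in the same groups (−1.52 ± 0.24, adjusted p = 0.0025). Inpp5d, the lipid phosphatase SHIP1, fell by 0.55 (SE 0.10, adjusted p = 0.0050), while Rasa1 rose by 0.56 ± 0.14 (adjusted p = 0.022). In ko against wt 2 were higher and none lower (median 0.22, against −0.05 over all genes). They were Dok2 (1.76 ± 0.24, adjusted p = 0.0013; 1.61 and 1.91 on the slides) and Dok3 (0.56 ± 0.17, adjusted p = 0.039; 0.98 and 0.15). The Dok3 call in ko ended in 15 alternatives, with the replicate number as a block among them (0.061) and the highest adjusted p without wt replicate 2 (0.117).

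DAP12, its companion adaptors and the kinases behind them formed a list of 16 genes. None was higher and 6 were lower with RUNX1-ERt2 than with ERt2 (median −0.47). Tyrobp, the gene of DAP12 and named here outside the rule for naming genes, averaged 4.90 with RUNX1-ERt2, 5.27 with ERt2, 3.80 in ko and 4.01 in wt, and passed in neither comparison (−0.37 ± 0.34, adjusted p = 0.52, and −0.21 ± 0.24, adjusted p = 0.56). Fcer1g, the Fc receptor gamma chain, averaged 2.26 with RUNX1-ERt2 and 4.02 with ERt2 (−1.76 ± 0.32, adjusted p = 0.0052), and Hcst, the adaptor DAP10, averaged 1.79 and 3.29 (−1.50 ± 0.17, adjusted p = 0.00036). Lcp2, the scaffold SLP-76, fell by 1.28 (SE 0.20, adjusted p = 0.0025) and Vav3, a signalling protein of the Vav family, by 1.09 (SE 0.25, adjusted p = 0.016). In ko against wt 3 were higher and 1 lower (median 0.17): Lcp2 rose by 1.42 ± 0.14 (adjusted p = 0.00027; 1.61 and 1.23 on the slides), Btk by 0.67 ± 0.09 (adjusted p = 0.0014) and Syk by 0.42 ± 0.12 (adjusted p = 0.029), the Syk call ending in 9 alternatives (highest 0.090, without ko replicate 1). Fcer1g was lower in ko (−0.75 ± 0.23, adjusted p = 0.041), a call that ended in 16 alternatives (highest adjusted p = 0.144, without the slide term).

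Of other receptors that pair with DAP12, 13 were tested, and in each comparison none was higher and 2 were lower (medians −0.16 and −0.07). Of all genes, 8.87% were lower with RUNX1-ERt2 and 13.8% in ko, so that the 2 of 13 is near the background. Trem2, a lipid-sensing receptor of macrophages, averaged −3.82 with RUNX1-ERt2 and 0.09 with ERt2 (−3.91 ± 0.42, adjusted p = 0.00028), and did not pass between ko and wt (0.65 ± 0.29, adjusted p = 0.14). Trem3 was lower with RUNX1-ERt2 (−2.46 ± 0.59, adjusted p = 0.018) and in ko (−1.33 ± 0.41, adjusted p = 0.044), the call in ko ending in 13 alternatives (highest 0.127, without ko replicate 4).

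Among other inhibitory receptors of myeloid cells, 14 were tested. With RUNX1-ERt2 against ERt2 none was higher and 6 were lower (median −0.91). Besides Btla these included Cd33, a sialic acid-binding lectin (−2.69 ± 0.53, adjusted p = 0.0078), Vsir, the gene of the checkpoint receptor VISTA (−1.54 ± 0.35, adjusted p = 0.015), and Lair1, a collagen receptor (−1.18 ± 0.32, adjusted p = 0.029). In ko against wt 2 were higher and 1, Btla, was lower (median −0.05). Siglecf, a lectin of eosinophils, rose by 0.93 ± 0.18 (adjusted p = 0.0071), and Fcgr2b, the inhibitory IgG receptor, by 0.59 ± 0.17 (adjusted p = 0.033), the Fcgr2b call ending in 9 alternatives (highest 0.095, without ko replicate 1).

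Of 12 tested ligands and checkpoint surface proteins, the class to which CD200 itself belongs, none was higher and 4 were lower with RUNX1-ERt2 (median −0.03). They were Icosl (−2.15 ± 0.21, adjusted p = 0.00017), Pvr (−1.55 ± 0.25, adjusted p = 0.0025), Nectin2 (−0.91 ± 0.25, adjusted p = 0.031) and Cd80 (−0.69 ± 0.18, adjusted p = 0.026). In ko against wt 5 were higher and 2 lower (median 0.08). Nectin2 rose by 1.79 ± 0.17 (limma adjusted p = 0.00022) and Pvr by 0.99 ± 0.17 (adjusted p = 0.0043). Also higher were Cd274 (1.93 ± 0.23, 0.00070), Pdcd1lg2 (1.90 ± 0.36, 0.0060) and Lgals9 (0.56 ± 0.16, 0.034), none of which passed with RUNX1-ERt2. Havcr2 (−1.17 ± 0.30, 0.021) and Cd24a (−0.48 ± 0.14, 0.036) were lower. Icosl (−0.13 ± 0.15) and Cd80 (0.17 ± 0.13) did not pass. The calls of Cd24a, Lgals9, Havcr2 and Pdcd1lg2 ended in 12, 9, 5 and 1 alternatives. The 18 pathway genes named by the rule were chosen among those past the threshold with RUNX1-ERt2 against ERt2, and 7 of them passed in every alternative, namely Dok3, Fcer1g, Hcst, Trem2, Btla, Icosl and Pvr. For the other 11 the highest adjusted p was 0.055 to 0.181. Dok2 (0.088), Inpp5d (0.082) and Lcp2 (0.055) lost the call only when the 4 arrays compared were fitted alone. The remaining 8 lost it without RUNX1-ERt2 replicate 2, at 0.129 for Rasa1, 0.091 for Vav3, 0.119 for Trem3, 0.057 for Cd33, 0.099 for Vsir, 0.170 for Lair1, 0.162 for Cd80 and 0.057 for Nectin2, and each also without at least 1 ERt2 array.

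**Figure D5:**
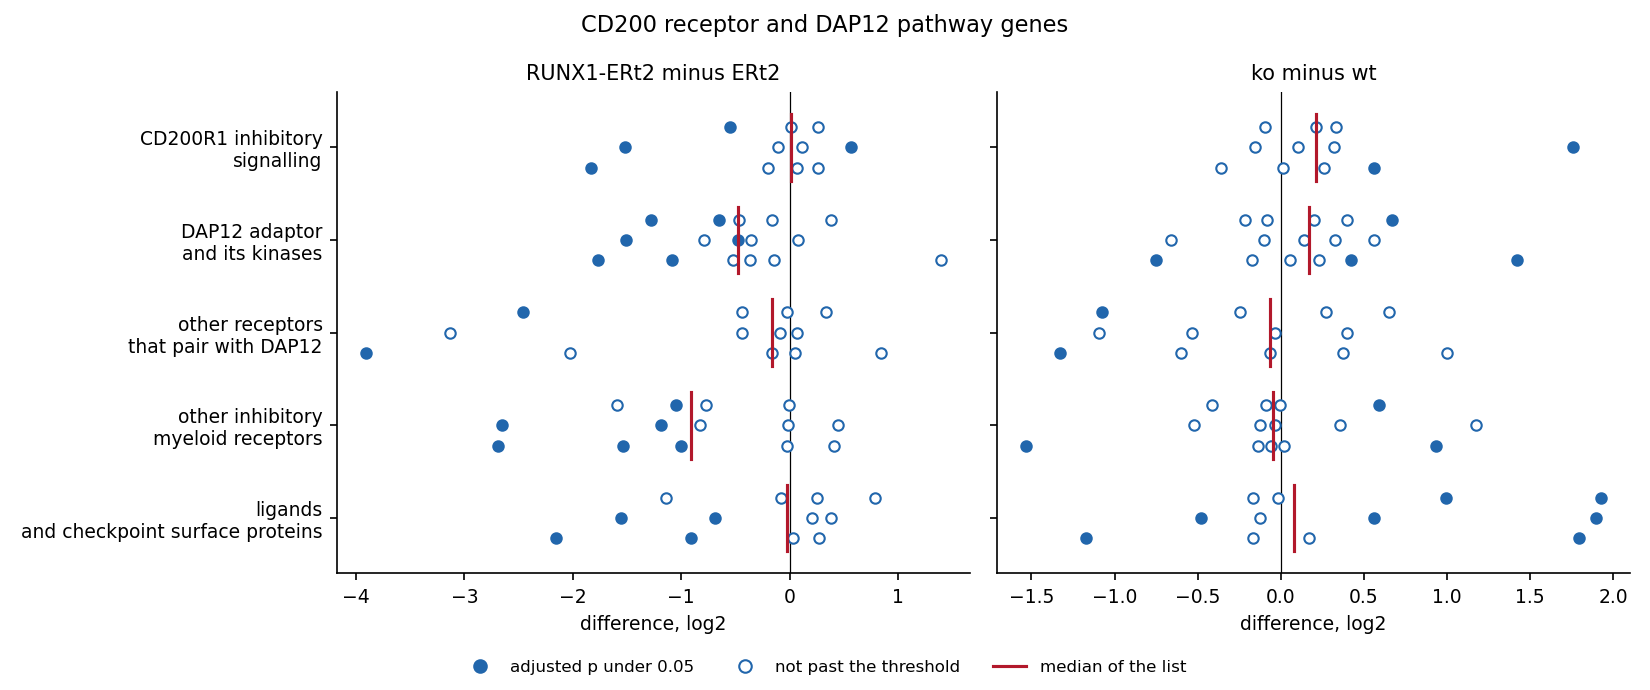
Difference on the log2 scale for each tested gene of 5 lists around CD200 receptor signalling, for RUNX1-ERt2 minus ERt2 and for ko minus wt. Filled points passed an adjusted p of 0.05 and red bars are list medians. The filled points of RUNX1-ERt2 minus ERt2 lie below 0, except 1, Rasa1.

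Markers of other cells were counted because CD200R3 is known from basophils and mast cells. Of 13 tested basophil and mast cell genes, 3 were higher and 7 lower in ko than in wt (median −0.84), against 11.5% and 13.8% of all genes. Those higher were Cpa3 (1.92 ± 0.24, limma adjusted p = 0.00080), the IL-33 receptor gene Il1rl1 (1.77 ± 0.30, adjusted p = 0.0034) and Il4 (2.83 ± 0.14, adjusted p = 4.8e-06). The defining basophil genes Prss34 (−8.10 ± 0.56, adjusted p = 3.6e-05) and Mcpt8 (−3.34 ± 0.12, adjusted p = 1.9e-06) were lower in ko, and Fcer1a, the IgE-binding chain of its receptor, was not well above background on any ko array. The summed linear level of the list, relative to the 75th percentile, was 66.3 to 95.2 in ko and 42.0 to 48.6 in wt. This sum is weighted by bright genes such as Cpa3, which averaged 5.30 in ko and 3.38 in wt. It was higher in ko although more of the genes were lower there. Between RUNX1-ERt2 and ERt2, 5 were higher and 2 lower (median 1.12), against 10.2% and 8.87% of all genes. The higher ones were Il6 (6.31 ± 0.40, limma adjusted p = 1.5e-05), Prss34 (3.29 ± 0.79, 0.019), Ms4a2 (2.71 ± 0.28, 0.00023), Cyp11a1 (2.05 ± 0.56, 0.032) and Il4 (1.15 ± 0.19, 0.0032). Il6 and Cyp11a1 were not well above background on any ERt2 array. The Cyp11a1 call ended in 8 alternatives, that of Prss34 in 3 and that of Il4 in 1. Hdc, the histamine-forming enzyme (−2.44 ± 0.24, adjusted p = 0.00017), and Mcpt8 (−0.89 ± 0.17, adjusted p = 0.0056) were lower. Cpa3 averaged 5.05 with RUNX1-ERt2 and 5.08 with ERt2, and Hdc 3.42 and 5.87. Summed levels, again weighted by such bright genes, were 60.8 to 78.0 with RUNX1-ERt2 and 98.7 to 109 with ERt2. How far such cells contribute to the receptor signals was not tested.

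Genes of other lists were counted in the same way, beside 10.2% of all genes higher and 8.87% lower with RUNX1-ERt2 and 11.5% higher and 13.8% lower in ko, and their part in the values of the receptors was not tested. Megakaryocyte and platelet genes had 6 of 12 higher and none lower in ko (summed level 51.4 to 68.0, against 11.6 to 17.8 in wt), and 1 higher and 2 lower with RUNX1-ERt2. Monocyte and macrophage genes had none of 9 higher and 6 lower with RUNX1-ERt2 (summed level 4.97 to 9.92, against 79.3 to 94.0 with ERt2), and none higher and 2 lower in ko. Without the slide term the calls with RUNX1-ERt2 of Mrc1, Fn1, Cx3cr1 and Adgre1 ended (limma adjusted p = 0.169, 0.140, 0.084 and 0.052). Those of Csf1r and F13a1 held in all alternatives. Of the 16 GMP genes, none was higher and 8 were lower with RUNX1-ERt2 (543.8 to 756.7, against 1054 to 1188 with ERt2), and 2 were higher and 6 lower in ko (464.4 to 605.5, against 714.5 to 982.3 in wt). Of 21 alternatives, 17 ended the call in ko of Cd34, 16 of Mpo, 14 of Ctsg, 9 of Fcgr2b and 8 of Kit. The ko calls of Cebpa, Irf8 and Ms4a3 held in all. With RUNX1-ERt2, 15 ended the call of Kit, 12 of Fcgr3 and 11 of Gfi1, and fewer the others. With RUNX1-ERt2, eosinophil genes had none of 9 higher and 2 lower, dendritic cell genes 1 of 9 higher and 1 lower, B lineage genes 2 of 8 higher and 1 lower, T and NK cell genes 1 of 11 higher and 1 lower, stroma and endothelium genes none of 10 in either direction, and erythroid genes 3 of 10 higher and none lower. In ko, eosinophil genes had 1 higher and none lower, dendritic cell genes none higher and 5 lower, B lineage genes none higher and 1 lower, T and NK cell genes none higher and 2 lower, stroma and endothelium genes 3 higher and 1 lower, and erythroid genes 3 higher and 1 lower. Of the dendritic cell calls in ko, that of H2-Aa ended in 16 alternatives, of H2-Eb1 in 5 and of Cd74 and Itgax in 1 each, while that of Flt3 held. Of the 4 Runx family genes, none was higher and 3 were lower with RUNX1-ERt2, and 3 were higher and none lower in ko.

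The genes whose levels ran most like each member were ranked by Pearson correlation over the 12 arrays, as a description of profiles that all follow the same 4 groups. For Cd200r3 they were Palld, an actin-associated protein gene (0.989), the transcription factor gene Nfib (0.985), Adamts9, Zfp711 and Tmcc3. For Cd200r4 they were Nfib (0.985), Gchfr, Palld, Gng11 and Capn5, so that Nfib and Palld stood in both lists. Nfib averaged −3.59 with RUNX1-ERt2, −2.25 with ERt2, −2.49 in ko and −6.46 in wt. For Cd200r2 they were the adhesion gene Jam3 (0.963), Hspa12b, the angiopoietin receptor gene Tek, Fhdc1 and Sox6. For Cd200r1 they were Heatr5a (0.964), N4bp2l1, Il15, Tlcd2 and Ttc28. For Cd200 they were the BAFF receptor gene Tnfrsf13c (0.976), Eldr, Plekho1, Slamf6 and Aurkb. Cd200r2 outside ko and Cd200 in the transplanted groups were not well above background, so that their rankings rest in part on such values.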

How the data were processed

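RNA of sorted GMP was labelled with Cy3 with the Low Input Quick Amp kit for 12 one-colour Agilent arrays, per the labels' protocols. The deposited intensities are scanner output, background-subtracted in Agilent Feature Extraction per the file headers and not normalized across arrays; the submitters' processing notes name version 9.1, the headers another. A series matrix of the authors, used as an alternative, holds the ratio of that signal to a constant of each array, as setting its columns against the scanner values showed; its 8 ko and wt columns each fit the other-slide replicate of their group (1 with 3, 2 with 4).

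Control and outlier spots (129 to 207 on each array) were removed, spots of a probe averaged, and log2 processed intensity taken minus the 75th percentile of the array. Names came from accession (27234 probes), symbol (3576), synonym (565) or the file (8054). Of several probes of a gene, the brightest on average was used. Groups and a slide term were fitted with limma 3.58.1 (lmFit, eBayes) in R 4.3.3, with 7 residual and 2.11 prior degrees of freedom, with Benjamini-Hochberg adjustment over 17905 genes with a threshold of 0.05. The test was also run on data simulated from the group means and spreads of these arrays, with results not given here. Where no array of a group was well above background, a fold is a lower bound against the higher of the lowest measured level of the array and the probe's own. Single probes above that lowest level were not always well above background, so these bounds are approximate. Genes were named by rule: members, neighbours within 500 kb, up to 4 genes of each pathway list with the largest difference among those past the threshold with RUNX1-ERt2, and 5 genes most like each member. The members and the 16 gene lists were chosen with earlier results of these data known, and no list was tested as a set. Equal replicate numbers of ko and wt share slides and deviate together (correlations of 0.18 to 0.67 over 4 pairs). Unequal numbers on the same slide correlated at 0.45 (ko 1, wt 2), 0.32 (ko 2, wt 1), 0.21 (ko 4, wt 3) and −0.06 (ko 3, wt 4). These correlations therefore do not separate a pairing by number from the shared slide. The number of arrays limits the precision.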

Additional observations from a re-analysis of the deposited data

How the results depend on the processing

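In RUNX1-ERt2 against ERt2 all alternatives kept Cd200r1, Cd200r3, Cd200r4 and Cd200 lower with RUNX1-ERt2, and without 1 array the differences ranged from −0.50 to −0.10 for Cd200r1, −0.85 to −0.46 for Cd200r3, −1.69 to −0.91 for Cd200r4 and −0.78 to −0.04 for Cd200. Cd200r2 ranged from −0.93 to 0.79, and neither it nor Cd200 was well above background in either group. Cd200r4 passed the threshold with quantile normalization (−1.27, adjusted p = 0.0468), the array median (−1.38, 0.037), the series matrix (−1.39, 0.0366), probes well above background on all arrays (−1.30, 0.0467), without wt replicate 2 (0.0401) and without ko replicate 3 (0.0433); over all 22 alternatives its adjusted p ran from 0.0366 to 0.277. Cd200r3 passed only without wt replicate 2 (−0.65, 0.0441), with a range of 0.0441 to 0.443. As the difference is the same with and without a wt or ko array, these calls rest on the shared estimate of the spread. The count of genes higher with RUNX1-ERt2, 1830, was 828 with normexp background correction and 886 with only the arrays compared (1244 to 1940 without 1 array), and that of genes lower, 1588, was 771 and 767 (935 to 1745 without 1 array; 972 without ERt2 replicate 1, 1048 without RUNX1-ERt2 replicate 1 and 935 without RUNX1-ERt2 replicate 2). In ko minus wt, normexp gave 0.016 for Cd200r2, 2.59 for Cd200r3 and 3.36 for Cd200r4, and the cause was not tested; without 1 array the ranges were 1.59 to 1.84 for Cd200r1, 2.83 to 3.1 for Cd200r2, 4.02 to 4.26 for Cd200r3, 4.63 to 5.06 for Cd200r4 and −0.70 to −0.36 for Cd200. The count of genes lower in ko, 2471, was 1397 with the array median, 1328 with the series matrix and 1354 with normexp (1447 to 2585 without 1 array), while the count higher, 2065, was 1057 with normexp. Normexp also moved the median of all genes in ko minus wt to −0.14, against −0.05.

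With the replicate number as a block, Cd200r4 differed by −1.30 ± 0.44 (limma adjusted p = 0.079) and Cd200r3 by −0.65 ± 0.23 (0.0911), and no member's call changed; 1999 genes were higher and 1734 lower with RUNX1-ERt2. The numbers of RUNX1-ERt2 and ERt2 did not deviate together (correlation −0.19), and with the RUNX1-ERt2 numbers crossed, an alternative chosen after seeing the data, the counts were 2207 higher and 1994 lower. Signal over background limits Cd200r2 outside ko and Cd200 in the transplanted groups.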
